A study of Mus musculus with 2 samples.

Results

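The nuclear genes for subunits of the oxidative phosphorylation complexes were followed in mouse cochlea, the hearing organ, after acoustic trauma. Members were chosen by name, as array entries starting with Ndufa, Ndufb, Ndufc, Ndufs, Ndufv, Uqcr, Cox4i, Cox5, Cox6, Cox7, Cox8 or Atp5. Sdha to Sdhd were taken as well. Assembly factors named Ndufaf were left out, as were Cox7a1 and Cox8b. The rule took 83 of the 37067 gene names on the array, carried by 129 probes. The baseline sample was cochlear total RNA from female C57BL/6 mice, an inbred strain, aged 7 weeks and not exposed to noise. The noise sample came from mice of the same strain, sex and age that were exposed to intense noise for 2 h and dissected 3 h later. Each sample was measured on 1 Agilent array of 1 colour, so every value below describes a difference between 2 arrays, with no replicate error and no p-value. The labels do not say how many mice or cochleae went into a sample.

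Oxidative phosphorylation is carried out by 5 protein complexes of the inner mitochondrial membrane. Complex I takes electrons from NADH and complex II from succinate, both pass them by way of ubiquinone to complex III, and cytochrome c carries them on to complex IV, which reduces oxygen. Complexes I, III and IV pump protons across the membrane, and complex V, the ATP synthase, uses their return to make ATP. Most subunits are encoded in the nucleus and a small set in mitochondrial DNA. In the cochlea, the ion-pumping lateral wall and the sensory and neural cells are known for a high demand for ATP.

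A probe was counted as measured where it was well above background on both arrays. A gene's level is the median over its measured probes of the processed signal divided by that array's 75th percentile, and is called the relative signal. A gene's log2 ratio is the median over the same probes of noise minus baseline, so a negative value means a lower scaled signal after noise. The 75th percentile was 316 after noise and 278 at baseline, a log2 difference of 0.18, and 75.3% and 75.2% of probes were well above background. In all, 26528 genes were measured on both arrays, with a median log2 ratio of -0.01. Of the marker lists for the labelled tissue, all 14 hair cell, 16 stria and lateral wall and 14 spiral ganglion genes were measured on both arrays. The filter is a loose one, since 26528 of the 37067 gene names passed it, as did all 25 skeletal muscle and 10 brown fat genes. Some of the markers were dim, such as the hair cell genes Slc26a5 (relative signals 0.018 after noise and 0.030 at baseline) and Atoh1 (0.024 and 0.029).

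Of the 83 names, 82 were measured. Cox8c, a testis isoform of a complex IV subunit, had no probe above background by that measure in either sample. Atp5c1-ps is a pseudogene entry and was set apart (log2 ratio -0.14). The remaining 81 members are described below, and all of them were well above background on both arrays, so none entered through 1 array alone.

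Most subunit genes were slightly lower on the noise array. The median log2 ratio over the 81 members was -0.18, a scaled signal 1.14-fold lower after noise. It lay -0.17 from the median of all measured genes. In direction, 73 of 81 members were below 0, against 52.5% of all measured genes. The SD over members was 0.16, against 0.35 over all measured genes. Dim genes weigh on the second value. Of the dimmest 25% of genes 27.3% were at or below -0.3, against 7.63% of the brightest 25%, which held 73 of the members. The SD of equally bright genes was not computed, so a spread narrower than theirs is not shown. Members ranged from -0.68 for Cox6a2 to 0.20 for Cox7b2, and every member lay within the central 95% of all genes (-0.77 to 0.63). Of the members, 20 were at or below a log2 ratio of -0.3, against 15.5% of all genes, and 0 were at or above 0.3, against 11.5%. None was at least 2-fold lower (1.25% of all genes) or at least 2-fold higher (0.611%). Cox7a1 and Cox8b, which the rule leaves out, were at log2 ratios of -1.09 and -1.54. Both lay outside the central 95% and were more than 2-fold lower, so these limits hold only for the members as chosen. In the ranking of all genes, 40 members were below the 25th percentile (-0.19) and 1 was above the 75th (0.15).

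**Figure D1:**
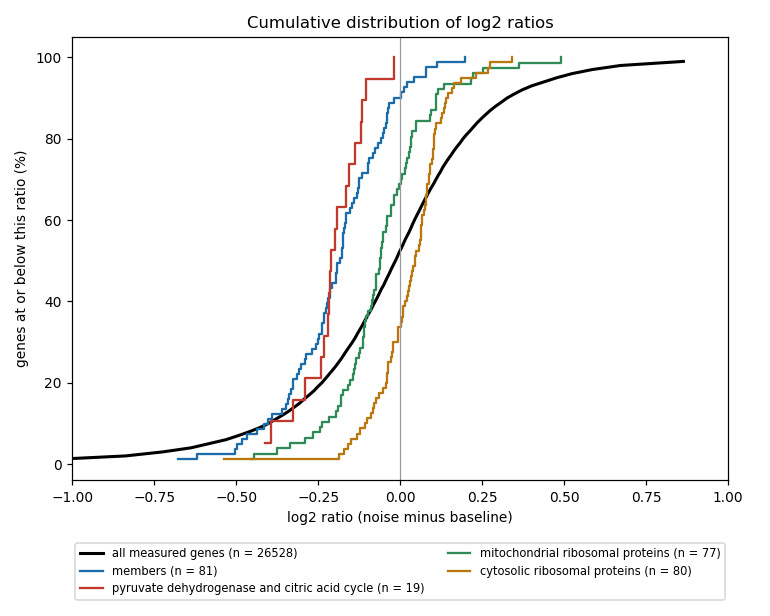
Cumulative share of genes (vertical axis, percent) at or below each log2 ratio of noise minus baseline (horizontal axis) for all 26528 measured genes, the 81 members and 3 lists of genes with related functions. The members' curve crosses its midpoint at -0.18 and that of all genes at -0.01, while fewer members than genes at large reach the outer ends of the scale.

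The size of this shift was read against the technical spread. Among the 300 probes printed repeatedly, a log2 ratio had a median SD of 0.071 between repeat spots. Different probes of a gene differed with an SD of 0.27 over 9348 genes, and with an SD of 0.15 over the 32 members that had several measured probes. The typical member's difference was close to the disagreement between probes, which limits what the value of a single gene shows. Of those 32 members, 20 had every probe below 0 and 11 had probes on both sides of 0. Counted by probe, 104 of 123 member probes were below 0, against 51.8% of all measured probes.

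The direction of this shift is relative to the other genes on the array. Before any scaling the median ratio of the members was -0.0008, and 41 of 81 were lower after noise. With scaling to the 8 spike-in controls, which are added in known amounts, the median of all genes moved to 0.16, the members stood at -0.01, and the medians of complexes IV and V were just above 0 (0.00649 and 0.044). Under both of these settings the members stayed -0.17 from the median of all genes. All ratios below are on the 75th percentile scale, and "lower" means lower relative to it.

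**Figure D2:**
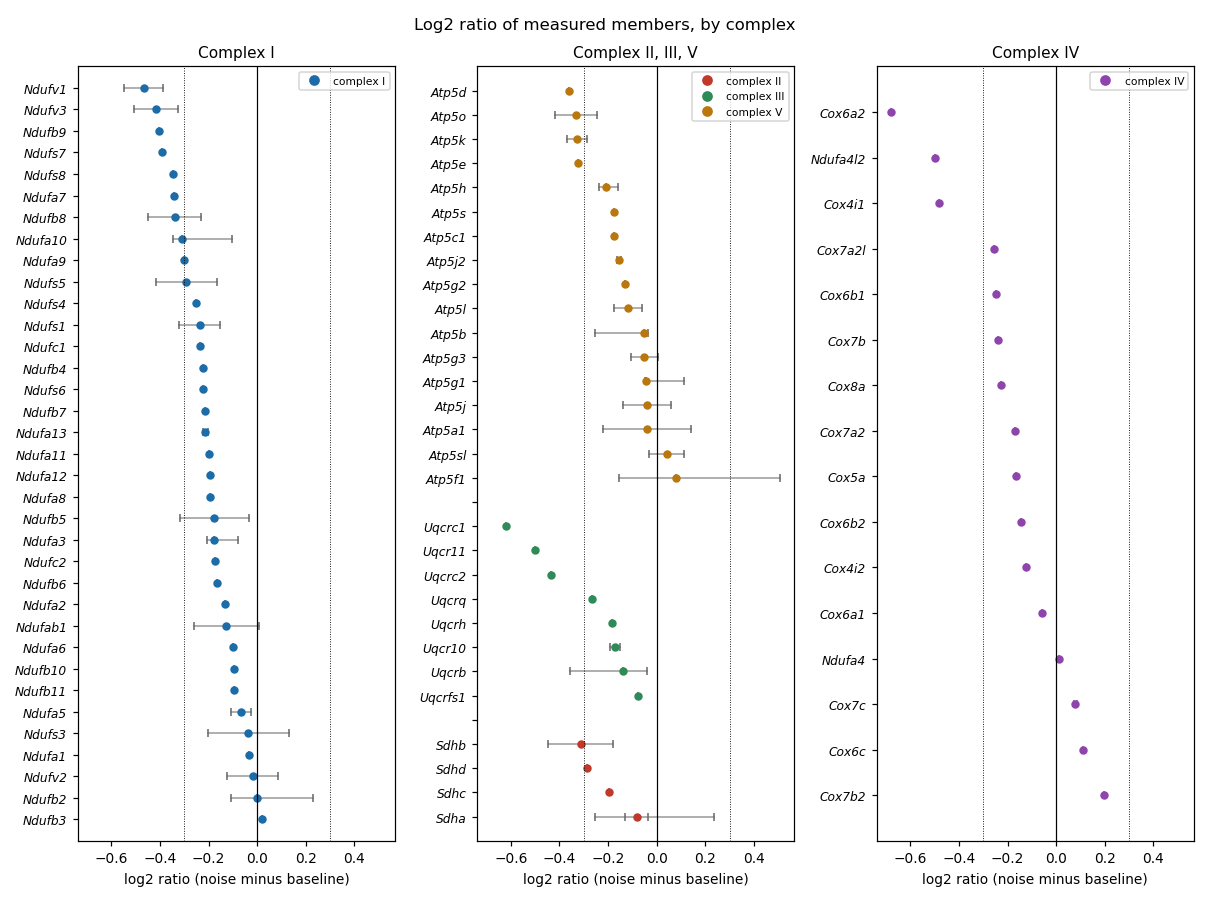
Log2 ratio (noise minus baseline, horizontal axis) of the measured members, grouped by complex, with 1 gene not shown. Dots are gene values, grey ticks joined by a line are the separate probes of genes with several, and dotted lines mark -0.3 and 0.3. All members of complexes II and III sit left of 0, while complexes I, IV and V have 2, 4 and 2 members to its right.

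Complex III, which passes electrons from ubiquinol to cytochrome c, held the lowest of the ubiquitous subunits. All 8 members were below 0, with a median of -0.23, and 3 were at or below -0.3. Of all measured genes, 52.5% were below 0 and 15.5% at or below -0.3. The core proteins Uqcrc1 and Uqcrc2, large matrix-facing subunits related to processing peptidases, were both among the 3 members. The relative signal of Uqcrc1 was 15.5 after noise and 23.8 at baseline, a log2 ratio of -0.62 or 1.54-fold lower. That of Uqcrc2 was 20.6 and 27.8 (log2 ratio -0.44, 1.35-fold lower). Uqcr11, the smallest subunit, had 30.9 and 43.8 (log2 ratio -0.50, 1.42-fold lower).

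The rest of complex III differed less. Uqcrq, a small subunit, had relative signals of 52.2 and 62.9 (log2 ratio -0.27), and the hinge protein Uqcrh, which lies near the docking site of cytochrome c, had 81.8 and 93.0 (log2 ratio -0.18). Uqcr10 and Uqcrb were at -0.17 and -0.14, the latter with 3 probes from -0.36 to -0.04. The Rieske iron-sulfur protein Uqcrfs1, a catalytic subunit, was the least different, with 16.3 and 17.2 (log2 ratio -0.08). The catalytic Rieske gene thus did not share the size of difference seen for the core proteins, each of these values resting on 1 measured probe.

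Promoters of 5 members are shown, chosen after the values were seen, so that each motif searched appears in at least 1 of them and members with a larger and a smaller difference can be set side by side. They are from RefSeq on the GRCm38.p6 build and run from 250 bases before the annotated start to 50 bases after it, written 5′ to 3′ on the strand of the gene. Capitals mark matches, on either strand, to 4 motifs of factors known to act at respiratory chain promoters: GCGCANGCG for NRF1 (nuclear respiratory factor 1), CCGGAAG for ETS factors such as GABPA, AAGATGGCG for YY1 and TCAAGGTCA for the estrogen-related receptors. The motif letters were chosen after the sequences had been looked at. Uqcrc1 (chr9:108936398-108936697, plus strand) holds 2 stretches with the NRF1 motif just after the start, Uqcr11 (chr10:80406772-80407071, minus strand) an ETS and an NRF1 match, Ndufs7 (chr10:80249199-80249498, plus strand) a YY1 match, Sdhd (chr9:50603800-50604099, minus strand) an NRF1, an ETS and an estrogen-related receptor match, and Cox6a1 (chr5:115348909-115349208, minus strand) 2 stretches with the NRF1 motif and an ETS match. The NRF1 motif is nearly the same on both strands, so 1 stretch can match on both.
Uqcrc1: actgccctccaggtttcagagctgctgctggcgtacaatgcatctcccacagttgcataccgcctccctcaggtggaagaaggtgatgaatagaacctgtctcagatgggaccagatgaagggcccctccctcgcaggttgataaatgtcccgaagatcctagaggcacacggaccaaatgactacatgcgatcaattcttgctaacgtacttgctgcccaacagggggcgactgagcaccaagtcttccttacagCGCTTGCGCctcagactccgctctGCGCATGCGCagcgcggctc
Uqcr11: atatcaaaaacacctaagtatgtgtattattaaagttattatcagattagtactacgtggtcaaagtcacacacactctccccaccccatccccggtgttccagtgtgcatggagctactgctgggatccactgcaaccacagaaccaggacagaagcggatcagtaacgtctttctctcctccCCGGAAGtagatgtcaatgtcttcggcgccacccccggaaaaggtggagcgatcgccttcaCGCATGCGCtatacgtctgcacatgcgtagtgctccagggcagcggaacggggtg
Ndufs7: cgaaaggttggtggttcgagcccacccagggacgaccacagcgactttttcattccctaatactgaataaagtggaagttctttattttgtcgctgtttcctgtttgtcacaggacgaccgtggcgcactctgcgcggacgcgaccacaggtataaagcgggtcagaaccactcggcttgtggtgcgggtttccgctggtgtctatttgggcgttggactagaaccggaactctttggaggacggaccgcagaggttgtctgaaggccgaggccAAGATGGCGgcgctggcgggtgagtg
Sdhd: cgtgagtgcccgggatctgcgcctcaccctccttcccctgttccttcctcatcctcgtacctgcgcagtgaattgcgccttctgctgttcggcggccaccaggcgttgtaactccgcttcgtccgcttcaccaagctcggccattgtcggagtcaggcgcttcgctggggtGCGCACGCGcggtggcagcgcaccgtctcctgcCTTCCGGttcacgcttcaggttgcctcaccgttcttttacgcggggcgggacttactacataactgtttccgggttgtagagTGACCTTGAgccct
Cox6a1: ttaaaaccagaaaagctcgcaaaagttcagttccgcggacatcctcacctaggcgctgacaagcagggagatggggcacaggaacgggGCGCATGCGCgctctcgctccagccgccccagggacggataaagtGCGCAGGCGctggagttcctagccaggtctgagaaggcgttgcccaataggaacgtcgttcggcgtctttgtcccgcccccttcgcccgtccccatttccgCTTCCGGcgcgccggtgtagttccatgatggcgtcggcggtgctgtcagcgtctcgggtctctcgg

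A promoter entry was found for 67 of the 83 members, with 73 entries in all, and 36 members held at least 1 of the 4 motifs. The NRF1 motif was in 21 of the 73 member promoters (28.8%), against 6.25% of all 32851 promoters of the same length. The ETS motif was in 16 (21.9%, against 8.86%), the YY1 motif in 9 (12.3%, against 1.40%) and the receptor motif in 2 (2.74%, against 0.423%). Since the motif letters were chosen after the sequences had been looked at, these shares only describe the promoters and cannot test an excess. They count entries, so a gene with several can count more than once: 20 genes held the NRF1 motif and 8 the YY1 motif. Members with and without a motif had similar array values. The median log2 ratio was -0.20 for the 20 members with the NRF1 motif and -0.18 for the 47 without it, and -0.22 for the 16 with the ETS motif and -0.17 for the 51 without it. For the YY1 motif the medians were -0.23 over 8 members and -0.18 over 59, and for the receptor motif -0.17 over 2 and -0.18 over 65. A match is only a run of letters, and the printed promoters show the range: Uqcrc1 and Cox6a1 both hold 2 stretches with the NRF1 motif, while their log2 ratios were -0.62 and -0.06.

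Complex I, the entry point for electrons from NADH, had 36 measured members, of which 34 were below 0 and 9 were at or below -0.3. The shares of all measured genes were 52.5% and 15.5%. The median of complex I was -0.21. The 7 members of the catalytic core, which bind the flavin and the iron-sulfur clusters, were all below 0 with a median of -0.24, and 27 of the 29 accessory subunits were below 0 with a median of -0.20. Within the core the lowest was Ndufv1, the subunit that binds NADH and the flavin. Its relative signal was 10.9 after noise and 15.1 at baseline (log2 ratio -0.47), and its probes gave -0.55 and -0.39.

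The remaining core genes spread widely. Ndufs7 and Ndufs8, which carry the last clusters before ubiquinone, had relative signals of 23.9 and 31.3 (log2 ratio -0.39) and of 19.5 and 24.8 (log2 ratio -0.35). Ndufs1, the largest subunit of the NADH-oxidising arm, had relative signals of 1.68 and 1.98 (log2 ratio -0.24). These are medians over a bright probe (processed signals 4566 and 5025, log2 ratio -0.32) and a dim probe (61.6 and 60.3, log2 ratio -0.15). Ndufs3 and Ndufv2 were close to no difference by gene value, at -0.04 and -0.02, and each had probes on both sides of 0. The probe above 0 was dim in both, with processed signals of 17.5 and 14.1 for Ndufs3 and 66.6 and 55.3 for Ndufv2. Their bright probes gave -0.20 and -0.13. Ndufv1 and Ndufv2 are neighbours in the protein, and their values lay at opposite ends of the core.

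Among the accessory subunits of complex I, Ndufv3, a small partner of the NADH-binding module, was lowest by gene value (log2 ratio -0.42). Its relative signals of 2.02 and 2.70 are medians over a bright and a dim probe. The bright probe (processed signals 10193 and 11251) gave -0.33, and the dim probe (40.0 and 50.1) gave -0.51. The membrane arm subunit Ndufb9 followed with 31.4 and 41.5 (log2 ratio -0.40). Ndufa7 and Ndufb8 were both at -0.34, Ndufa10 at -0.31 and Ndufa9 at -0.30. Ndufb8 likewise had a bright probe at -0.23 and a dim probe at -0.45. At the other end, Ndufb2 had the same relative signal on both arrays (19.3), and Ndufb3 had 16.1 after noise and 15.9 at baseline (log2 ratio 0.02). By gene value these were the only members of complex I not below 0. Ndufb2 had 3 probes, of which the brightest (processed signals 10595 and 10066) gave -0.11 and a dim one (58.0 and 43.6) gave 0.23. Ndufb3 was at -0.0068 under quantile normalization. The other accessory subunits lay between these ends.

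Complex II, the succinate dehydrogenase shared with the citric acid cycle, is encoded wholly in the nucleus. All 4 genes were below 0, with a median of -0.24. Sdhb, the iron-sulfur subunit, had relative signals of 16.2 and 20.1 (log2 ratio -0.31), and the membrane anchors Sdhd and Sdhc had 16.0 and 19.5 (log2 ratio -0.29) and 6.04 and 6.91 (log2 ratio -0.19). The flavoprotein Sdha was at -0.08, with 4 probes from -0.25 to 0.24, the second widest spread among the members.

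In complex IV, cytochrome c oxidase, 12 of 16 members were below 0, with a median of -0.17, and 3 were at or below -0.3. The shares of all measured genes were 52.5% and 15.5%, so the count of 3 was close to the general share. Of the complexes, complex IV had the widest spread over genes (SD 0.23). Over the 10 ubiquitous subunits 7 were below 0 (median -0.17), and over the 5 tissue-restricted or inducible paralogues 4 were (median -0.15). Cox4i1, the ubiquitous form of the largest nuclear subunit, had a relative signal of 59.5 after noise and 83.2 at baseline, a log2 ratio of -0.48 or 1.40-fold lower. It was measured by 1 probe at chr8:123197924-123197983 of the mm9 build, shown here because no other ubiquitous complex IV gene reached -0.3.
Cox4i1 probe: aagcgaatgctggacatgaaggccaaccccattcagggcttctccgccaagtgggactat

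The other ubiquitous subunits of complex IV fell on both sides of 0. Cox6b1 and Cox7b were at -0.25 and -0.24, Cox8a at -0.23, and Cox7a2 and Cox5a both at -0.17. Cox6a1 had relative signals of 163 and 170 (log2 ratio -0.06), and Ndufa4, once counted with complex I and now placed here, had 20.9 and 20.7 (log2 ratio 0.01). Cox7c and Cox6c, small membrane subunits, were higher after noise, with 8.87 and 8.39 (log2 ratio 0.08) and 59.8 and 55.4 (log2 ratio 0.11). Cox7a2l, a paralogue of Cox7a2 that acts in joining complexes III and IV, had 43.2 and 51.6 (log2 ratio -0.26).

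The tissue-restricted paralogues held both extremes of all members. Cox6a2, the heart and skeletal muscle form of Cox6a, had relative signals of 1.63 after noise and 2.61 at baseline, a log2 ratio of -0.68 or 1.60-fold lower. Ndufa4l2, a hypoxia-inducible paralogue of Ndufa4, had 0.30 and 0.423 (log2 ratio -0.50). Cox7b2, a paralogue known from testis, had 0.130 and 0.114 (log2 ratio 0.20). It is the highest member by this value, but its single probe was dim and gave -0.00906 with normexp background correction. Cox6b2, also known from testis, and Cox4i2, a form known from lung, were at -0.15 and -0.13. Each of these genes had 1 measured probe.

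**Figure D3:**
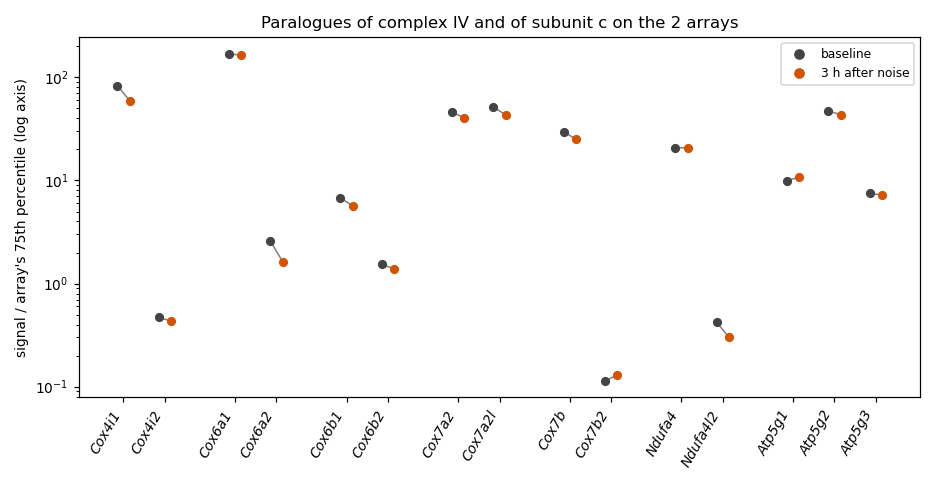
Relative signal (processed signal over the array's 75th percentile, log axis) of paralogous members at baseline (dark) and 3 h after noise (orange), to be compared within a gene only. The line falls most steeply for Cox6a2 (2.61 to 1.63) and rises for Cox7b2 (0.114 to 0.130); for Atp5g1 the plotted signals and the reported log2 ratio of -0.04 differ in sign, because each is a median over 3 probes taken separately.

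The muscle form stood beside a broader difference in muscle and fat transcripts. All 25 skeletal muscle marker genes were measured on both arrays, and all 25 were below 0 with a median of -0.62. At least 2-fold lower were 6 of them, against 1.25% of all genes. The summed relative signal of the muscle list was 60.2 after noise and 85.4 at baseline, most of it from Pvalb, which is also a hair cell marker (42.5 and 54.2). Without Pvalb the sums were 17.7 and 31.2. All 10 brown fat genes were measured as well, 8 were below 0 and 5 at least 2-fold lower (median -0.78), with a summed relative signal of 29.7 against 90.8. The mitochondrial uncoupling protein Ucp1, which defines brown fat, had 2.72 and 19.1. Of 13 adipocyte genes 12 were below 0 (median -1.04). Their sums were 44.1 and 66.3, or 15.6 and 37.4 without the brightest, Fasn. With normexp background correction the skeletal muscle median was -0.44, the brown fat median -0.51 and the adipocyte median -0.40. The 10 measured of 12 central neuron and glia genes were all below 0 (median -1.38, sums of 13.5 and 32.3). Their median was -1.04 with normexp background correction. No marker of the muscle, brown fat or adipocyte lists was at background on either array.

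Cox7a1 and Cox8b, which the rule leaves out, are forms of complex IV subunits typical of muscle and brown fat and belong to the brown fat list used here. Cox7a1 had relative signals of 6.95 and 14.8 (2.13-fold lower), and Cox8b had 8.82 and 25.6 (2.91-fold lower), both beyond every member. Muscle and brown fat are known as tissues rich in mitochondria, and the part of these markers in the lower values of the members was not tested. Without the paralogues and the names that are not stable subunits, the median of the 73 ubiquitous subunits was -0.19, with 67 below 0. Ubiquitous subunits are made in muscle and fat too, so this median cannot separate the part of those tissues. In RNA from a whole tissue, fewer cells of a type and less RNA per cell cannot be told apart.

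The lists for the cochlea's own cells lay nearer to 0. The summed relative signal of the hair cell list was 56.4 after noise and 66.7 at baseline, but 14.0 and 12.4 without Pvalb, with a median log2 ratio of 0.04. For the stria and lateral wall the sum was 154 and 136 (median 0.18, or 0.29 with a stricter filter on dim probes). For the spiral ganglion it was 135 and 151 (median -0.17, or -0.08 from the brightest probe of each gene). Erythroid genes had 731 and 799 (median -0.07). The part of these in the members' values was not tested either.

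Complex V, the ATP synthase, had 17 measured members, of which 15 were below 0 and 4 at or below -0.3. The shares of all measured genes were 52.5% and 15.5%. Its median, -0.13, was the nearest to 0 of the 5 complexes, but this rank depended on the processing. From the brightest probe of each gene it was -0.174, while the complex IV median was at or above -0.169 in every setting. With spike-in scaling complex IV, at 0.00649, was nearer to 0 than complex V, at 0.044. In the catalytic head and central stalk, all 5 genes were below 0 (median -0.17). The small subunits of the stalk differed most, with Atp5d at 12.9 and 16.5 (log2 ratio -0.36) and Atp5e at 46.1 and 57.8 (log2 ratio -0.33). The catalytic beta subunit Atp5b had 46.5 and 47.7 (log2 ratio -0.05), and its partner alpha, Atp5a1, had 32.9 and 33.8 (log2 ratio -0.04). Their probes disagreed: Atp5a1 had -0.22 and 0.14, and Atp5b ran from -0.25 to -0.04, the brightest probe being the lowest in both genes. Atp5d was at 0.0061 when a second, dim probe was let in.

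In the membrane part and the peripheral stalk, 6 of 7 genes were below 0 (median -0.15). Atp5o, which links the stalk to the head, had 25.2 and 31.7 (log2 ratio -0.33), and the membrane subunit Atp5k had 32.4 and 40.7 (log2 ratio -0.33). The peripheral stalk subunit Atp5f1 was at 0.08, from 3 probes at -0.15, 0.08 and 0.51, the widest gap of any member (0.66). The probe at 0.51 lies at chr3:105761646-105761705 of mm9 and was dim, with processed signals of 31.7 and 19.6, and the other probes lie between 105745871 and 105746655. The 3 genes for subunit c, the rotor ring, encode the same mature protein and were all close to 0: Atp5g1 at -0.04, Atp5g2 at -0.13 and Atp5g3 at -0.05. The names Atp5s (-0.18) and Atp5sl (0.04) were taken by their prefix and do not encode stable subunits of the enzyme.

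Genes with neighbouring functions were described from lists, each by its count and median. The first list held the pyruvate dehydrogenase and citric acid cycle genes, whose pathway supplies the electrons, with the pyruvate carboxylase Pcx counted among them. All 19 were below 0 with a median of -0.21, from Pcx at -0.41 to Idh2 at -0.02. At or below -0.3 were 3 of them, close to the 15.5% of all measured genes. Of the subunits encoded in mitochondrial DNA, 11 were on the array and measured, and 8 were below 0 with a median of -0.19, which was -0.09 under quantile normalization. They ran from ND2 at -0.32 to ND6 at 0.26, the latter from the other strand of the mitochondrial genome than the rest. The 5 electron carrier and subunit genes that the name rule misses were all below 0 (median -0.08), with Cyc1, the cytochrome c1 of complex III, lowest at -0.25 and the ATP synthase inhibitor Atpif1 highest at -0.04.

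**Figure D4:**
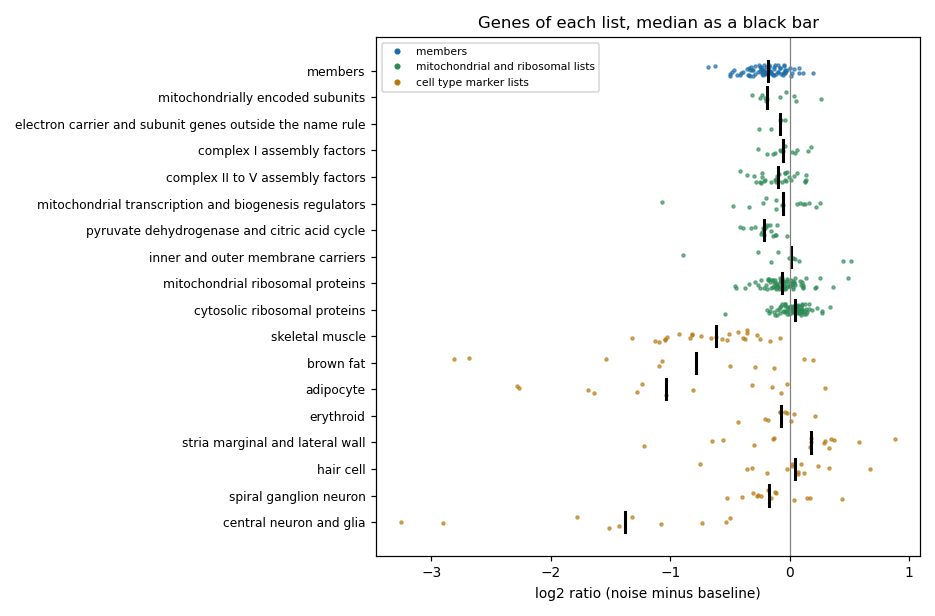
Log2 ratio (noise minus baseline, horizontal axis) of each measured gene of the members, of 9 lists of mitochondrial and ribosomal genes and of 8 cell type marker lists, with black bars at the medians. The citric acid cycle genes (-0.21) all lie left of 0 and most members (-0.18) do, while the cytosolic ribosomal proteins centre on 0.05. The muscle, fat and central nervous lists spread far to the left.

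Genes that build the complexes rather than form them were nearer to 0. Of 13 complex I assembly factors 8 were below 0 (median -0.06), from Nubpl at -0.27 to Ndufaf4 at 0.18. Of 31 assembly factors of the other complexes 24 were below 0 (median -0.10), from the complex III factor Uqcc2 at -0.41 to Cox18 at 0.14. The mitochondrial ribosomal proteins, which translate the subunits encoded in mitochondrial DNA, had 53 of 77 below 0 and a median of -0.06, from Mrps15 at -0.46 to Mrps6 at 0.49. Cytosolic ribosomal proteins lay on the other side, with 27 of 80 measured below 0 and a median of 0.05. Their lowest was Rpl3l, a paralogue typical of muscle, at -0.54, and their highest was Rps12 at 0.34.

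The transcriptional regulators of mitochondrial genes did not move as a block. Of 16, 9 were below 0 with a median of -0.06. The lowest was Ppara, a receptor that drives fatty acid oxidation and also a member of the brown fat list, with relative signals of 0.334 and 0.701 (log2 ratio -1.07). The coactivators Ppargc1a and Ppargc1b, which promote mitochondrial biogenesis, were at -0.34 and -0.47. Of the factors whose motifs were searched in the promoters, Nrf1 was at 0.09, Gabpa at 0.11, Esrra at 0.16 and Yy1, the highest of the list, at 0.25, while Esrrg, also an estrogen-related receptor, was at -0.20. The inner and outer membrane carriers had a median of 0.01, with 5 of 10 below 0, from the sarcomeric mitochondrial creatine kinase Ckmt2 at -0.89 to the uncoupling protein Ucp2 at 0.52.

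Most members are bright on the array, and 73 of 81 were among the brightest 25% of measured genes. In that group the median of all genes was 0.01 and 46.6% were below 0, while 66 of the 73 members were (median -0.19). In the same group 7.63% of all genes were at or below -0.3. Member probes had a median GC content of 45% against 43.3% for all measured probes. Across 4 groups cut at the quartiles of GC content, from lowest to highest, the medians of member probes were -0.14, -0.14, -0.24 and -0.20, and those of all probes were 0.02, -0.01, -0.01 and -0.06.

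**Figure D5:**
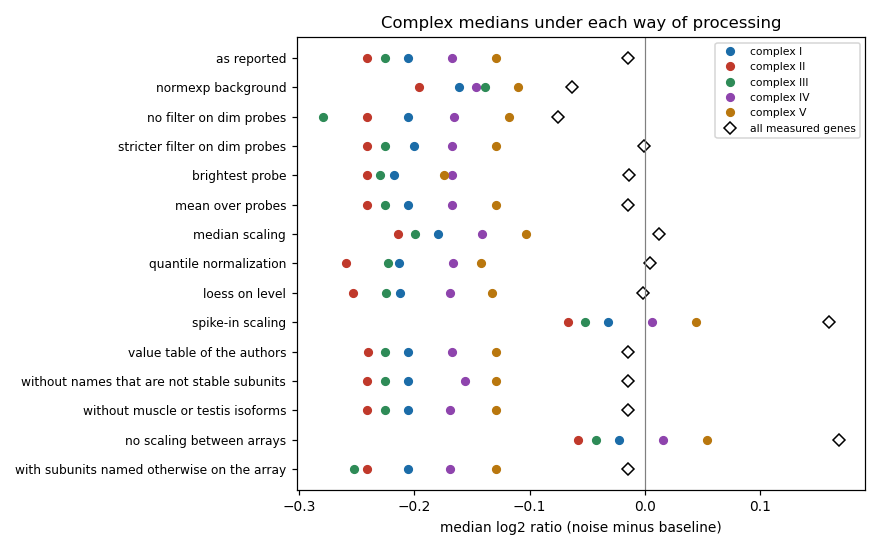
Median log2 ratio (noise minus baseline, horizontal axis) of each complex (dots) and of all measured genes (diamonds) as reported and under each other way of processing the arrays. The complexes stay left of the diamond in each setting shown, and with spike-in scaling or no scaling everything moves right, so that complexes IV and V cross 0 while the median of all genes reaches 0.16 and 0.17.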

How the data were processed

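Per the file headers and the submitters' processing notes, spot intensity was read with Agilent Feature Extraction 11.5.1.1, which gave a background-subtracted, detrended processed signal on a linear scale, not scaled between arrays. The deposited value table held log2 values, equal to log2 of the same signals minus a constant per array (8.30 noise, 8.12 baseline), with column medians of -2.81 and -2.79, no centring of genes, and was used as an alternative.

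Of 62976 spots per array, 59305 were not controls. Outlier flags removed 77 (noise) and 58 (baseline), none was saturated, and 56590 probes remained on both arrays, 41647 of them well above background on both. Repeat spots were averaged in log2, and the 75th percentile of an array's non-control probes was then set to 0. A gene took the median over its measured probes, which are 60 bases long. Both arrays lay on 1 slide and were read in 1 scan. The number of arrays limits the precision, and with 1 per group no test was made. Call limits were 0.3 in log2 and 2-fold. The steps were tested on simulated data.

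The members, lists, limits and alternatives were chosen with earlier results of these data known. Named with values were the 4 lowest and 3 highest members of each complex, those past 0.3, paralogue groups, the 3 members whose probes differ most, and the lowest and highest gene of each mitochondrial or ribosomal list. A few other genes of the complexes and lists were named after their values were seen. A single gene is counted among the members but not reported here by name. Gene names are those of the array design. Probe coordinates are on mm9, whose annotation was not used here. Python 3.11.15, pandas 2.3.3 and limma 3.58.1 (R 4.3.3) were used.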

Additional observations from a re-analysis of the deposited data

How the results depend on the processing

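No paired analysis was possible because 1 array stood for each group, and none could be left out. Scaling moved the direction. With scaling to the spike-in controls (log2 differences of -0.20 to 0.40 before scaling), the medians were -0.010 over all members, -0.032 for complex I, -0.067 for complex II, -0.052 for complex III, 0.00649 for complex IV and 0.044 for complex V, with 46 members below 0, 5 at or below -0.3 and 1 at or above 0.3. With no scaling, chosen after seeing the data, these were -0.00080, -0.022, -0.058, -0.043, 0.016 and 0.054, with 41, 5 and 1. The share of all genes below 0 was then 26.6% and 25.6%, because the all-gene median was at 0.16 and 0.17, while the members stayed -0.17 from it. These settings also turned 7 list medians above 0: the carrier and subunit genes outside the name rule (0.0955 and 0.10), the assembly factors of complex I (0.12 and 0.13) and of complexes II to V (0.076 and 0.085), the regulators (0.12 and 0.13), the mitochondrial ribosomal proteins (0.11 and 0.12), the spiral ganglion (0.00360 and 0.013) and the erythroid genes (0.10 and 0.11). With normexp background correction the members lay -0.087 from the median of all genes and complex III had a median of -0.14; 64.9% of genes were below 0, and the cause was not tested. With no filter on dim probes, Atp5d was at 0.0061, since a probe not well above background at baseline then entered its median. Over all alternatives, the number of members below the median of all genes ran from 63 to 77, against 73 of 81 as reported. The lowest was 63 of 82 with no filter on dim probes. The highest was 77 of 85 with subunits under other names added, a larger set. The other alternatives (other probe summaries, filters, median, quantile and loess scaling, the authors' value table, fewer members, and, chosen after seeing the data, subunits under other names) kept the direction of every complex median.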
